A study of Mus musculus with 5 samples.

Results

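The genes described here are 10 that are used to recognise astrocytes: the intermediate filament genes Gfap, Vim and Nes, the identity genes Aldh1l1, Sox9, S100b and Aldoc, and Slc1a2, Slc1a3 and Glul, which handle glutamate. They were chosen by name. On the array, 31 of 45101 probe sets name 1 of these genes alone, and 1 more names Slc1a2 together with a second gene and was left out of the counts. All 10 genes are among the 12935 genes that were tested. Optic nerves of C57BL/6 mice aged P35 to P45 were held for 3 days in organotypic culture medium that contained LY294002, a small molecule best known as an inhibitor of phosphoinositide 3-kinase that also acts on other kinases. RNA of 3 L-LY29 samples and 2 H-LY29 samples was hybridised to Affymetrix mouse arrays. The labels give 50 µM for H-LY29 and 0.5 µM for L-LY29, while the paper states a higher L-LY29 dose for adult nerves, and which one these samples received was not settled here. The sample titles write LY294002 where the treatment entries write LY295002, and both were read as 1 compound. Arrays without the drug were not analysed here. A difference is the L-LY29 mean minus the H-LY29 mean in log2 units, and it does not say which dose moved a gene. The nerves were removed with the retina attached and then cleaned of the arachnoid and of other attached tissue, per the methods. It is not stated in the sources used here which mice went into which sample, so a p-value covers only the spread between arrays.

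Astrocytes are the glia that ring the axon bundles and vessels of the optic nerve. Their cytoskeleton is built from GFAP and vimentin, with nestin in immature and reactive cells, and reactive astrocytes make more of these proteins. They take up glutamate through GLT-1 (Slc1a2) and GLAST (Slc1a3) and turn it into glutamine with glutamine synthetase (Glul). Several of these genes are not specific to astrocytes: Vim is also made by fibroblasts, vessel cells and microglia, and S100b and Glul are also made by oligodendrocytes. In bulk nerve, fewer cells of a type and less RNA per cell cannot be told apart.

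The RefSeq promoter table (GRCm38.p6) held 10 windows for 9 of the 10 genes, and Sox9 was not matched. The 250 bases before the start are shown for the 3 filament genes, for Aldh1l1 and for S100b. Each of these had a probe set that differed between the doses at an adjusted p under 0.05 by limma. Not every probe set of Gfap, Nes and Aldh1l1 did so. Capitals mark matches, on either strand, to CCAAT (33.8% of the 32851 windows of that length in the table hold it), TATAAA (12.4%), GGGCGG (32.7%), ACAAT (27.7%), TGANTCA (6.75%), TTCNNNGAA (7.02%) and TGACGTCA (1.55%), where N is any base. None of these motifs contains another, so matches can share bases only at their ends.
Gfap, chr11:102897201-102897450, minus strand: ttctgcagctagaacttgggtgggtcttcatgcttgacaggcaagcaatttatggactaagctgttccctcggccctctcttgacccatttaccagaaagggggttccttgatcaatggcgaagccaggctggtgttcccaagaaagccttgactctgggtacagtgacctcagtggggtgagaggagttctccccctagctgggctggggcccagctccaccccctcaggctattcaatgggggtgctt
Vim, chr2:13574061-13574310, plus strand: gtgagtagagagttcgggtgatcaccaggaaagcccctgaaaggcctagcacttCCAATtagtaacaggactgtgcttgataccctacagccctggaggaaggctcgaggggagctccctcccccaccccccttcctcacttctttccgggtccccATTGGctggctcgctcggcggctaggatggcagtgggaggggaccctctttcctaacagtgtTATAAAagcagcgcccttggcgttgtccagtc
Nes, chr3:87970843-87971092, plus strand: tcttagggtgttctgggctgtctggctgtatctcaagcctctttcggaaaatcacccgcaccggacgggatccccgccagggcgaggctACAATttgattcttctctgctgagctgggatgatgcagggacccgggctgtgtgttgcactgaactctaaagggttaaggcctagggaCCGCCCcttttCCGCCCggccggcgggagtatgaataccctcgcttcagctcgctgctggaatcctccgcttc
Aldh1l1, chr6:90550543-90550792, plus strand: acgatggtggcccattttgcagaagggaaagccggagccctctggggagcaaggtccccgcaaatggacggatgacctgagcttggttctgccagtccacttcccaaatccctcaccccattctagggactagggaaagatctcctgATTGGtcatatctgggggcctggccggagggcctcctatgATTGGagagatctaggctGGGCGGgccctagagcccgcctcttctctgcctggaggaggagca
S100b, chr10:76253586-76253835, plus strand: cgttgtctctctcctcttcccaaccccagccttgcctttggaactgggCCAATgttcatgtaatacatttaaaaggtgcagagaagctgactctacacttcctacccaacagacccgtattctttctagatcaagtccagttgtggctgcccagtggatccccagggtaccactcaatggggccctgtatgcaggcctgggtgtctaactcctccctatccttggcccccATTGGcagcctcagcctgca
The Gfap window held none of these letters. Vim carried CCAAT in both orientations and TATAAA close to the start. Nes carried 2 GGGCGG matches and ACAAT, Aldh1l1 carried CCAAT and GGGCGG, and S100b carried CCAAT alone. Vim, which was lower in L-LY29, and S100b, which was higher, thus both held CCAAT. Among the other genes, CCAAT was found in Glul and Slc1a3, TATAAA in Slc1a3, GGGCGG in Glul, Aldoc and Slc1a3, and both ACAAT and TTCNNNGAA in Aldoc and Slc1a3. A match describes the letters only.

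By the brightest probe set of each gene, most of the 10 genes gave a weaker signal in L-LY29, and S100b gave a stronger one. With 1 probe set per gene, the brightest, 6 genes (60%) were lower in L-LY29 at a Benjamini-Hochberg adjusted p under 0.05 by limma. These were Vim, Nes, Aldh1l1, Sox9, Slc1a3 and Glul. S100b was higher, and Gfap, Slc1a2 and Aldoc did not pass. The brightest was chosen by the mean over all 5 arrays, so a probe set bright mainly in H-LY29 could stand for a gene. In L-LY29 alone, 1426340_at of Slc1a3 (8.91 against 7.87) and 1449022_at of Nes (8.96 against 8.72) were brighter than the probe sets chosen. The calls of Slc1a3 and Nes as lower thus rested on a choice made from the same values. Over all 12935 genes 73.8% were called, 46.6% as lower and 27.1% as higher, so a call in itself sets no gene apart. The median difference was -1.12 over the 10 genes and -0.26 over all genes. The L-LY29 arrays all lay under both H-LY29 arrays for 8 of the 10 genes, where 51.8% of all genes did so, and all above them for S100b. The arrays of the doses overlapped for Aldoc alone, and 83.1% of all genes had no overlap. Taken over every probe set, 12 of the 31 were called lower and 3 higher, with 16 not passing, where 58.9% of all 45037 probe sets other than controls were called, 30.3% as lower and 28.6% as higher. In 23 of the 31 the doses did not overlap, against 72.3% of all probe sets. The probe set read for a gene decided the call or the direction for Gfap, Nes, Aldh1l1, Sox9, Slc1a2, Slc1a3 and Glul, so the probe sets are given one by one. A level of 1 probe set cannot be set against that of another.

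**Figure D1:**
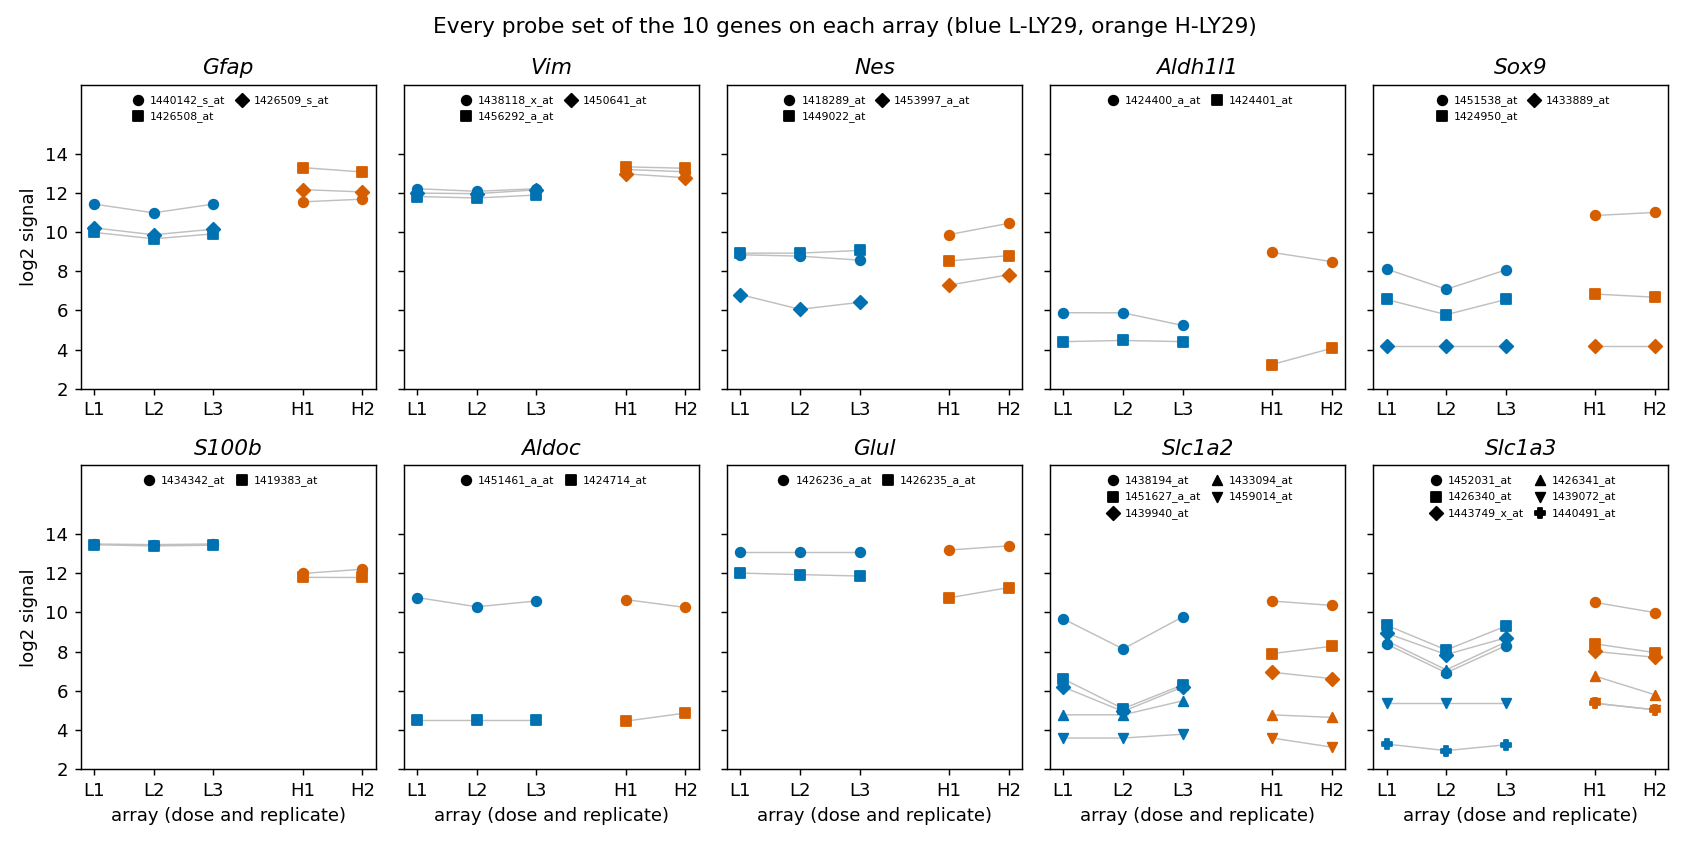
The log2 signal of each probe set (y axis) on the 3 L-LY29 arrays (L1 to L3, blue) and the 2 H-LY29 arrays (H1, H2, orange), with 1 panel per gene and 1 marker shape per probe set; lines join the points of a probe set and carry no error. All Vim probe sets sit lower on the L-LY29 arrays and both S100b probe sets sit higher. Probe sets of Gfap, Nes, Aldh1l1, Slc1a3 and Glul part ways. L-LY29 replicate 2 dips for Slc1a2, Slc1a3 and Sox9.

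Gfap, the main filament protein of astrocytes, was far lower in L-LY29 by 2 of its 3 probe sets. Probe set 1426508_at read 9.98, 9.65 and 9.90 in L-LY29 and 13.28 and 13.06 in H-LY29. The arrays of the doses lay far apart, with a difference of -3.33 (SE 0.13, adjusted p = 0.000157 by limma). Probe set 1426509_s_at read 10.21, 9.85 and 10.14 against 12.16 and 12.04, a difference of -2.03 (SE 0.12, adjusted p = 0.000351). The remaining one, 1440142_s_at, read 11.42, 10.97 and 11.42 against 11.53 and 11.67. Its L-LY29 arrays still lay under both H-LY29 arrays, but by -0.33 (SE 0.16, adjusted p = 0.151), which did not pass. That probe set has the highest mean signal and therefore stood for Gfap in the counts of genes, where the gene did not pass (adjusted p = 0.118). With the mean of the 3 probe sets in its place the difference was -1.90 and passed, and with the second brightest it was -3.33. Replicates 1 and 3 of L-LY29 held the same value of 1440142_s_at to the last digit, as they did at 9 of the 31 probe sets in all.

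Vim, which encodes the vimentin that co-assembles with GFAP, was lower in L-LY29 by all 3 of its probe sets. Probe set 1456292_a_at read 11.81, 11.73 and 11.88 in L-LY29 and 13.32 and 13.25 in H-LY29, a difference of -1.48 (SE 0.06, adjusted p = 0.000157). Probe set 1438118_x_at read 12.20, 12.07 and 12.20 against 13.19 and 13.07, a difference of -0.97 (SE 0.06, adjusted p = 0.00041). The narrow spread within each dose was much smaller than the gap between them. Probe set 1450641_at read 11.98, 11.95 and 12.15 against 12.96 and 12.77, a difference of -0.84 (SE 0.09, adjusted p = 0.00164). The 3 probe sets thus put Vim 1.79-fold to 2.78-fold lower in L-LY29, and under every alternative tried the gene stayed lower and called, by -1.48 to -0.75.

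Nes, whose product nestin joins vimentin filaments in progenitors and reactive glia, was lower by 2 probe sets out of 3. Probe set 1418289_at read 8.83, 8.77 and 8.56 in L-LY29 and 9.86 and 10.44 in H-LY29, a difference of -1.43 (SE 0.20, adjusted p = 0.00366). Probe set 1453997_a_at read 6.80, 6.05 and 6.40 against 7.28 and 7.82, a difference of -1.13 (SE 0.29, adjusted p = 0.0256). The H-LY29 arrays were the more spread in the first, and in the second the standard deviation was 0.38 at either dose. The call of 1453997_a_at was lost without L-LY29 replicate 2 or 3 and without either H-LY29 replicate. The remaining one, 1449022_at, ran the other way, with 8.92, 8.92 and 9.06 against 8.51 and 8.79, and its difference of 0.31 (SE 0.11, adjusted p = 0.0672) did not pass. It passed as higher with quantile normalization (0.72, adjusted p = 0.00432), with equal array medians (0.52, adjusted p = 0.0112) and without H-LY29 replicate 2 (0.45, adjusted p = 0.0341), and the quantile setting also took the call from 1453997_a_at (-0.61, adjusted p = 0.121).

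Of the identity genes, Aldh1l1 and Sox9 were each lower in L-LY29 by more than 3 log2 units in their brightest probe set. Aldh1l1 encodes a cytosolic folate enzyme and marks astrocytes through much of the central nervous system. Probe set 1424400_a_at read 5.88, 5.87 and 5.23 in L-LY29 and 8.95 and 8.49 in H-LY29, a difference of -3.06 (SE 0.28, adjusted p = 0.000967), which is 8.35-fold. Its second probe set, 1424401_at, was dim, with 4.40, 4.46 and 4.40 against 3.23 and 4.06. The H-LY29 mean of that probe set, 3.65, lay within the range of added bacterial poly-A RNAs that gave almost no signal there (2.34 to 4.30). The difference of 1424401_at, 0.77 (SE 0.26, adjusted p = 0.0575), did not pass. With equal array medians it passed as higher (0.99, adjusted p = 0.0173 by limma). Sox9 encodes a transcription factor of the SRY-box family that glial progenitors and astrocytes express. Probe set 1451538_at read 8.11, 7.07 and 8.06 in L-LY29 and 10.84 and 10.99 in H-LY29, a difference of -3.17 (SE 0.36, adjusted p = 0.00192). Even the highest L-LY29 array lay well under both H-LY29 arrays. Probe set 1424950_at read 6.55, 5.78 and 6.55 against 6.83 and 6.67, a difference of -0.45 (SE 0.28, adjusted p = 0.232) that did not pass, and 1433889_at held 4.16 on all 5 arrays.

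S100b, a calcium-binding protein of astrocytes and of part of the oligodendrocyte lineage, was the only one of the 10 genes called higher in L-LY29 with 1 probe set per gene. Probe set 1419383_at read 13.46, 13.39 and 13.43 in L-LY29 and 11.79 and 11.78 in H-LY29, a difference of 1.64 (SE 0.03, adjusted p = 0.000126), which is 3.12-fold. Probe set 1434342_at read 13.49, 13.46 and 13.49 against 11.99 and 12.20, a difference of 1.38 (SE 0.07, adjusted p = 0.000234). The L-LY29 values were close to the highest signal on any array, 14.45, and within each dose the arrays nearly coincided. Under every alternative tried S100b stayed higher and called, by 1.28 to 1.64. Of the 10 markers of mature oligodendrocytes that were tested, 7 were also higher in L-LY29 (70%, against 27.1% of all genes). The other 3 were lower (30%, against 46.6%), and the part of these markers in the S100b signal was not tested. Aldoc, the aldolase isoform of brain glycolysis that astrocytes express strongly, showed no detectable difference. Probe set 1451461_a_at read 10.76, 10.29 and 10.59 in L-LY29 and 10.66 and 10.25 in H-LY29. The doses overlapped, and the difference of 0.09 (SE 0.19, adjusted p = 0.701) had a 95% interval of -0.42 to 0.60. Probe set 1424714_at held 4.54 on every L-LY29 array against 4.46 and 4.87, a difference of -0.13 (SE 0.14, adjusted p = 0.477).

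The glutamate transporters gave split results. Slc1a3 encodes GLAST, and its brightest probe set 1452031_at read 8.38, 6.92 and 8.30 in L-LY29 and 10.51 and 9.99 in H-LY29, a difference of -2.38 (SE 0.52, adjusted p = 0.0162) or 5.21-fold lower. That probe set no longer passed without H-LY29 replicate 1 (-2.12, adjusted p = 0.136) or replicate 2 (-2.64, adjusted p = 0.0918). The dim 1440491_at read 3.28, 2.95 and 3.25 against 5.36 and 5.03, a difference of -2.04 (SE 0.16, adjusted p = 0.000672), and its L-LY29 level was no higher than that of the poly-A RNAs in H-LY29. The other 4 Slc1a3 probe sets pointed the other way, from 0.17 (1439072_at) to 1.76, and did not pass. The most distant of them, 1426341_at, read 8.55, 7.07 and 8.49 in L-LY29 against 6.75 and 5.80, a difference of 1.76 (SE 0.59, adjusted p = 0.0563). Every L-LY29 array lay over both H-LY29 arrays there, and without L-LY29 replicate 2 the difference was 2.25 and passed (adjusted p = 0.0188). Probe set 1426340_at read 9.35, 8.09 and 9.30 against 8.40 and 7.95, and 1443749_x_at differed by 0.64 (SE 0.36, adjusted p = 0.198). Without L-LY29 replicate 2 these also passed as higher, by 1.15 and 0.96. Probe set 1426341_at passed as higher with quantile normalization (2.18, adjusted p = 0.017), equal medians (1.98, adjusted p = 0.0229) and the 40th percentile filter (adjusted p = 0.0383) too. So did 1443749_x_at with quantile normalization (1.12, adjusted p = 0.033) and 1439072_at with equal medians (0.38, adjusted p = 0.047). The probe sets of Slc1a3 thus pointed in both directions.

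Slc1a2, which encodes GLT-1, the transporter that clears most synaptic glutamate, was lower in L-LY29 by its 3 brightest probe sets, of which 1 passed. Probe set 1438194_at read 9.67, 8.14 and 9.78 in L-LY29 and 10.58 and 10.36 in H-LY29, a difference of -1.28 (SE 0.56, adjusted p = 0.116). Probe set 1451627_a_at read 6.61, 5.09 and 6.30 against 7.90 and 8.27, a difference of -2.09 (SE 0.50, adjusted p = 0.0215). Probe set 1439940_at read 6.20, 4.95 and 6.20 against 6.95 and 6.62, a difference of -1.01 (SE 0.45, adjusted p = 0.122). In all 3 the L-LY29 arrays lay under both H-LY29 arrays, and replicate 2 was the lowest. Without that array, 1438194_at and 1439940_at passed at -0.75 (adjusted p = 0.0134) and -0.59 (adjusted p = 0.0481), while the call of 1451627_a_at was lost without L-LY29 replicate 3 and without either H-LY29 array. The 2 dimmest, 1433094_at and 1459014_at, each differed by 0.30 (adjusted p = 0.364 and 0.189) and did not pass.

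Glul encodes glutamine synthetase, which turns glutamate into glutamine and is abundant in the mature oligodendrocytes of white matter as well as in astrocytes. Probe set 1426236_a_at held 13.09 on all 3 L-LY29 arrays and 13.19 and 13.40 on the H-LY29 arrays, a difference of -0.20 (SE 0.07, adjusted p = 0.059). Probe set 1426235_a_at read 12.01, 11.93 and 11.86 against 10.75 and 11.27, a difference of 0.93 (SE 0.17, adjusted p = 0.00859). The doses did not overlap in either probe set, and the directions were opposite. The call of Glul as lower with 1 probe set per gene (adjusted p = 0.0442) rested on the first, was lost when any one of the L-LY29 replicates was left out, and turned to 0.0139 when the arrays were given equal medians.

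**Figure D2:**
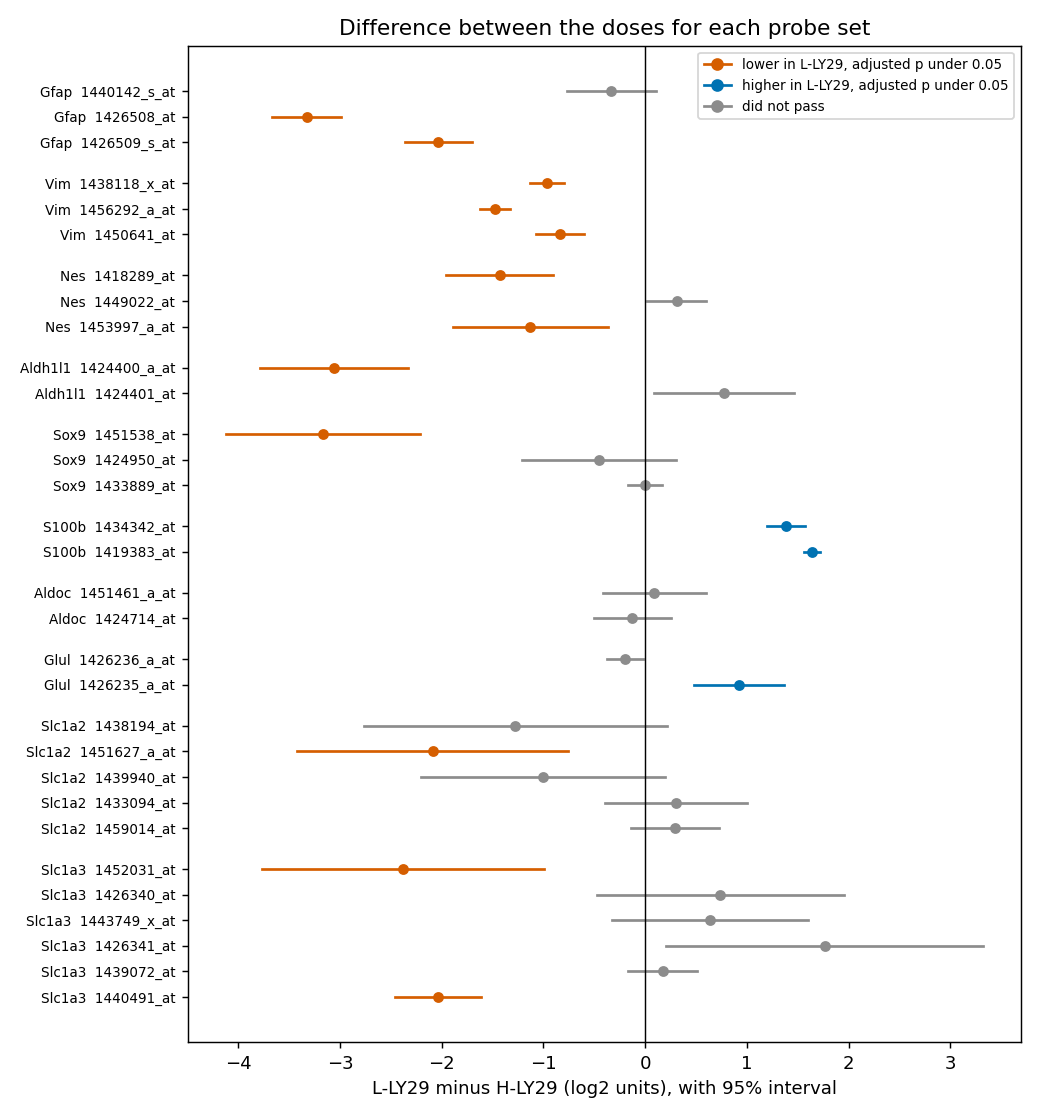
The difference between the doses (x axis, L-LY29 minus H-LY29 in log2 units) for each probe set, grouped by gene, with points for the estimate and bars for its 95% interval from limma. The 12 orange points to the left are lower in L-LY29 at an adjusted p under 0.05 and the 3 blue points to the right are higher; the 16 grey ones did not pass.

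With the values as deposited, 5 of the genes had at least 2 probe sets called, and the called ones of each went one way. That did not hold under other settings. Called probe sets opposed each other for Nes, Slc1a3 and Glul with quantile normalization, for Aldh1l1, Nes, Slc1a2 and Slc1a3 with equal array medians, and for Slc1a3 without L-LY29 replicate 2. They also did so for Aldh1l1, Glul and Slc1a3 without H-LY29 replicate 1, for Aldh1l1, Glul and Nes without H-LY29 replicate 2, for Glul and Slc1a3 with the 40th percentile filter, and for Slc1a3 with the replicate block. Over all genes, 2355 of 5206 with at least 2 called probe sets (45.2%) had them in both directions as deposited. Of the 31 probe sets, 12 held equal values on at least 2 L-LY29 arrays to the last digit, 1 on both H-LY29 arrays and 4 between the doses. Equal values make the spread within a dose look small, and whether the MAS-5 algorithm named in the methods made them was not settled here. The median signal of an array was 5.33 to 5.35 at L-LY29 but 5.54 to 5.56 at H-LY29. The poly-A RNAs that the labelling protocol adds gave a mean of 10.22 in L-LY29 and 3.17 in H-LY29 (24 probe sets). The 3′ probe set minus the 5′ one was 0.43 in L-LY29 and 0.92 in H-LY29 for actin, and -0.13 and 0.69 for Gapdh. These readings split along the doses and cannot be told apart from them, and their part in the differences was not tested.

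A difference between a pair of genes on the same array is free of a constant shift of that array, though not of a rescaling that depends on signal, such as quantile normalization. For 5 pairs chosen by role, the difference in log2 signal was compared between the doses by a two-sided exact permutation test, which with 3 against 2 arrays cannot go below 0.1. Slc1a2 minus Slc1a3 was 1.28, 1.21 and 1.48 in L-LY29 and 0.07 and 0.37 in H-LY29. The doses did not overlap (a change of 1.10, exact permutation p = 0.1, 0.167 after Benjamini-Hochberg over the 5 pairs). Gfap minus Vim changed by 0.64 and Gfap minus Aldh1l1 by 2.73, each with exact permutation p = 0.1 and 0.167 adjusted. Vim minus Nes changed by 0.46 (exact permutation p = 0.2, 0.25 adjusted) and Glul minus Slc1a2 by 1.08 (exact permutation p = 0.3, which is also its adjusted value). With the mean of each gene's probe sets, Slc1a2 minus Slc1a3 turned to -1.20 and Gfap minus Vim to -0.80. Gfap minus Aldh1l1 went as low as -0.51 with an array left out, when another Gfap probe set was the brightest. The sign of these ratios, and that of Vim minus Nes, thus followed the probe set chosen. Glul minus Slc1a2 stayed positive under every alternative run, from 0.55 to 3.01.

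Within L-LY29, replicate 2 stood apart in the transporters and Sox9. Against the mean of replicates 1 and 3 it differed by -1.59 for Slc1a2, by -1.42 for Slc1a3 and by -1.01 for Sox9 in log2 units. These gaps lay at percentiles 0.495, 0.665 and 1.26 of those of all genes. For Gfap the gap was -0.45, and for Vim, S100b and Glul it was -0.13, -0.03 and 0. The gap for Nes was 0.07, and for Aldh1l1 it was 0.32, since replicate 3 was the low array for that gene. Replicate 2 was under both other L-LY29 arrays in 7 of the 10 genes and in 31 of 43 other astrocyte genes (72.1%), against 29.7% of all genes. It was lower by more than 1 unit in 3 of the 10 and in 11 of the 43 (25.6%), against 164 of all 12935 genes (1.27%). Among those 11, Mlc1, an astrocyte end-foot membrane protein, read 9.53, 7.07 and 9.45 in L-LY29 and 12.17 and 12.05 in H-LY29. Aqp4, the water channel of the end-feet, read 9.16, 7.80 and 8.93 against 11.53 and 11.62. Replicate 2 was also the lowest L-LY29 array for all 11 tested markers of ocular surface epithelium, with a median gap of -1.90. It was under both others for 7 of 10 markers of mature oligodendrocytes, by a median of -0.07 and by less than 1 unit for each, and for 1 of 10 markers of microglia. Without replicate 2 the differences were -0.75 for Slc1a2, which then passed (adjusted p = 0.00636), -1.91 for Slc1a3 and -2.83 for Sox9.

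Other genes of quiescent astrocytes were mostly lower in L-LY29 too. Of a list of 48, 43 were tested, and 24 were lower, 3 higher and 16 did not pass. The share lower was 55.8% against 46.6% of all genes, the share higher 6.98% against 27.1%, and the median difference -0.92 against -0.26. Without either one of the H-LY29 replicates the share lower fell under that of all genes in the same setting. The list median was then -0.95 without replicate 1 and -1.14 without replicate 2, against -0.16 and -0.21 over all genes. With quantile normalization 19 were lower and 7 higher, where 4713 and 5116 of 12950 genes were. The lowest adjusted p belonged to Lcat, a cholesterol-esterifying enzyme of lipoprotein particles, which read 6.41, 6.22 and 6.15 in L-LY29 and 11.08 and 11.06 in H-LY29, a difference of -4.80. Nfib, a nuclear factor I gene of gliogenesis, differed by -2.45, although 1 of its 7 probe sets was called higher and 4 lower. Cst3, the secreted protease inhibitor cystatin C, differed by -1.13, and Dbi, an acyl-CoA-binding protein, by -1.22. The called genes also included Dio2, which activates thyroid hormone (-4.55), Aqp4 (-2.94) and Gja1, the main gap junction protein of astrocytes (-1.49). The 3 higher genes were Pla2g7, a secreted phospholipase (1.21), Aldh1a1, a retinaldehyde dehydrogenase (0.61), and the nuclear receptor Rorb (0.40). The potassium channel gene Kcnj10 (0.15) and the adhesion molecule gene Hepacam (-0.01) were among the 16 that did not pass.

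Among genes that reactive astrocytes induce, those common to different injuries were mostly lower in L-LY29, while those tied to inflammation were split. Of 11 such pan-reactive genes 10 were lower in L-LY29 (90.9%, against 46.6% of all genes), with a median difference of -1.96. Fewer were called lower without either one of the H-LY29 replicates, and a call as higher appeared. Without H-LY29 replicate 2 the share lower was close to that of all genes in the same setting. The list median was -1.84 without H-LY29 replicate 1 and -1.96 without replicate 2. The 10 lower genes included Osmr, a receptor subunit for oncostatin M (-1.90), and Cp, the ferroxidase ceruloplasmin (-3.02). Also among them were S1pr3, a sphingosine 1-phosphate receptor (-2.86), and Lcn2, the siderophore-binding lipocalin (-2.72). The remaining gene, the small heat shock protein Hspb1, differed by -0.06 and did not pass. Lcn2 read 9.66, 9.81 and 10.83 in L-LY29 against 12.83 and 12.80 in H-LY29. Of 9 genes tested from an A1 list of 12, associated with inflammation, 3 were lower (Serping1 by -1.90, Gbp2 by -1.49, Fbln5 by -0.56), 3 higher (Amigo2 by 0.63, Fkbp5 by 0.41, Srgn by 0.34) and 3 did not pass (Iigp1, Psmb8 and H2-D1). The shares lower and higher were both 33.3%, against 46.6% and 27.1% of all genes. Probe sets of Amigo2 were called in both directions, and for Fbln5 the other of its 2 probe sets was called higher in the fit of all probe sets. Of 12 A2 genes, associated with ischaemia, 8 were lower, among them S100a10 (-1.14), Slc10a6 (-1.75) and Tgm1 (-2.99), 2 were higher, Cd14 (1.79) and Emp1 (0.96), and Ptgs2 and Ptx3 did not pass. The share lower was 66.7% against 46.6% of all genes. Without either one of the H-LY29 replicates it fell under that of all genes in the same setting. The list median was then -0.42 without replicate 1 and -0.47 without replicate 2. The A1 median was -0.53 and the A2 median -0.85. With the second brightest probe set, which left 6 pan-reactive genes, 2 were lower and 1 higher and their median was -0.62, and of 8 A2 genes 2 were lower and 2 higher.

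**Figure D3:**
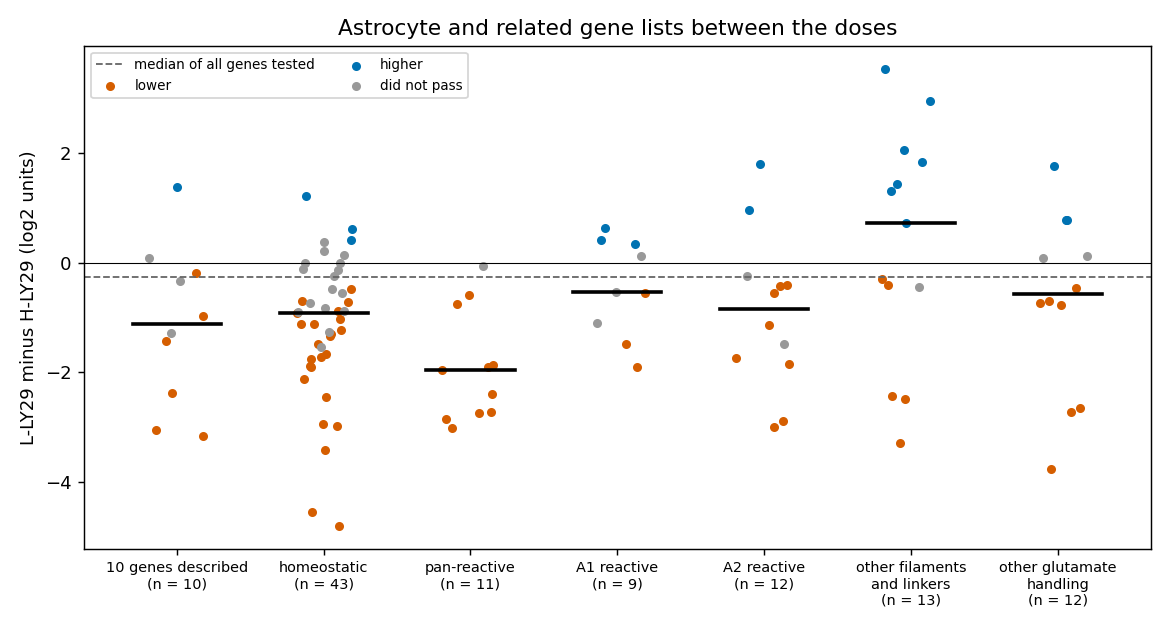
The difference between the doses (y axis, L-LY29 minus H-LY29 in log2 units) of every tested gene in each list, 1 point per gene, orange if called lower, blue if called higher and grey if it did not pass; the dashed line is the median of all genes tested, -0.26. The pan-reactive genes lie almost all under the dashed line, while the other filament genes spread to both sides.

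The other intermediate filament genes and their linkers did not share one direction. Of 15 in the list 13 were tested, and 7 were higher in L-LY29 and 5 lower, with a median of 0.72. The share higher was 53.8% against 27.1% of all genes, and the share lower 38.5% against 46.6%. The higher ones were the neurofilament and neuronal filament genes Nefl (3.54), Nefh (2.05), Nefm (1.43), Prph (1.83) and Ina (0.72), the muscle filament gene Des (1.30), and Synm (2.94), whose product synemin assembles with vimentin and desmin. Nefl read 9.60, 9.89 and 9.55 in L-LY29 against 5.94 and 6.34 in H-LY29, with no overlap. The lower ones were the nuclear lamins Lmnb2 (-3.30), Lmnb1 (-2.44) and Lmna (-0.40), and the linkers Plec (-2.50) and Dst (-0.29). For Dst the brightest probe set was lower and the other 3 were called higher, and the keratin gene Krt8 did not pass. The sign of the median depended on the filter, since without it 15 genes gave -0.29, and without L-LY29 replicate 2 it was -0.01.

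Of the other genes of glutamate uptake and metabolism, 12 of 14 were tested. In L-LY29 7 were lower, 3 higher and 2 not past the threshold, with a median of -0.58. The share lower was 58.3% against 46.6% of all genes, and the share higher 25% against 27.1%. With quantile normalization 5 were lower and 5 higher, with equal medians 6 and 5, and with the second brightest probe set 1 of 8 was lower and 3 higher. Transporters led the lower ones. Slc1a4, a neutral amino acid transporter, read 6.96, 6.72 and 6.81 in L-LY29 and 10.53 and 10.67 in H-LY29, a difference of -3.77. The glutamine transporter Slc38a1 differed by -2.72 and the glutamate transporter Slc1a1 by -2.66. The higher ones were Glud1, the mitochondrial glutamate dehydrogenase (0.78), Gclc, the catalytic subunit of the enzyme that starts glutathione synthesis (1.76), and the amino acid transporter Slc38a2 (0.78), which has 1 probe set called lower. Got1 and Slc38a3 did not pass.

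Markers of some other cells that the samples could hold differed between the doses as well, and their part in the astrocyte differences was not tested. Over all genes tested 46.6% were lower and 27.1% higher, and 73.8% were called in either direction. Of 12 fibroblast markers 11 were lower in L-LY29, with a mean log2 signal over the list of 7.60, 7.61 and 8.02 in L-LY29 and 9.95 and 9.66 in H-LY29, and among them Col1a1 differed by -6.64. Of 8 pericyte markers 5 were lower (62.5%) and 3 did not pass, so a smaller share was called in either direction than over all genes. Of 8 endothelial markers 5 were higher, 1 lower (Flt1) and 2 did not pass. Of 10 microglial markers 8 were higher and 2 lower (C1qb and Tmem119), and the list mean was 9.37 to 9.52 at L-LY29 against 8.40 to 8.63 at H-LY29. The mature oligodendrocyte markers had a list mean of 12.26 to 12.35 at L-LY29 against 12.03 to 12.16 at H-LY29. Of 9 oligodendrocyte precursor markers 3 were lower (33.3%), 2 higher (22.2%) and 4 did not pass, with each share under that of all genes. The other 43 astrocyte genes had a list mean of 8.67, 8.11 and 8.73 in L-LY29 and 9.71 and 9.60 in H-LY29, so the doses did not overlap and replicate 2 was the lowest. Markers of ocular surface epithelium, which optic nerve does not contain, were 10.25, 7.53 and 8.51 in L-LY29 and 4.14 and 3.99 in H-LY29. Of these markers, 10 of 11 were called higher. The H-LY29 list means lay under the filter of 4.77 log2 units. As a list these markers thus passed the filter through their L-LY29 signal, which favours a call as higher. Of 6 Müller glia markers, cells of the retina that also make Glul and Slc1a3, 3 were tested and all 3 were lower in L-LY29 (Dkk3, Rlbp1 and Car14). Without the filter 4 of the 6 were lower and 2 higher. With quantile normalization 4 were tested, of which 2 were lower and 1 higher. Of 10 retinal neuron markers 2 passed the filter, Rbpms, which was lower by -2.52, and Sag, whose difference of -0.01 did not pass, and 6 were too dim to test.

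**Figure D4:**
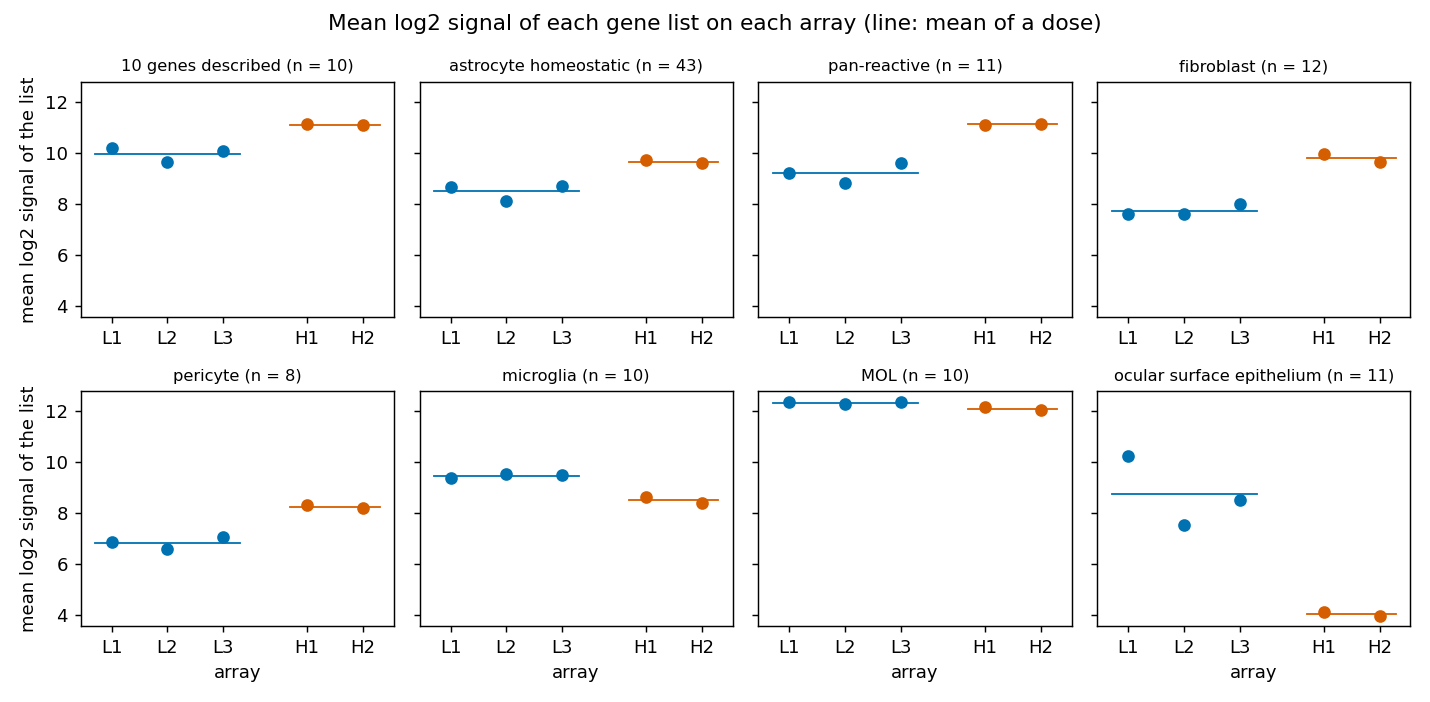
The mean log2 signal of each gene list (y axis) on the 3 L-LY29 arrays (L1 to L3) and the 2 H-LY29 arrays (H1, H2), with 1 panel per list and a line at the mean of each dose; single points are arrays and carry no error. The astrocyte lists sit lower in L-LY29, with the lowest point at L2, while the ocular surface epithelium list sits between 7.53 and 10.25 in L-LY29 and between 3.99 and 4.14 in H-LY29.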

How the data were processed

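RNA was measured on 5 arrays, grouped by their labels into 3 for L-LY29 and 2 for H-LY29. The methods name biotin-labelled cRNA, Affymetrix GeneChip Operating Software and normalisation by MAS-5 in GeneSpring GX 12. The authors deposited a log2 signal for each of 45101 probe sets, without stating a scaling target, and these values were used unchanged. Of the probe sets, 34958 name 1 gene, 932 several and 9211 none, and 64 are controls. Two-sided limma 3.58.1 in R 4.3.3 (lmFit, eBayes with an intensity trend) was fitted to all 45037 probe sets other than controls, and, after leaving out those under the 40th percentile (4.77 log2 units, keeping 27001), to the probe set with the highest mean of each gene that is named alone. P-values were adjusted by Benjamini-Hochberg, with a threshold of 0.05. The scripts were tested on simulated data. All 10 genes are described with every probe set, and of each other list up to 4 genes with the smallest adjusted p and those counted in 5 or fewer. Further named genes were chosen after their values were seen. The genes and lists were chosen with earlier results of these data known, so their counts are descriptions. Alternatives covered the filter, a floor, the scaling, the probe set of a gene, the variance trend, an unpaired t-test named by the methods for other data, the replicate number as a block, and each array left out. With 1 array left in H-LY29, that array was assumed to vary like the others. The number of arrays limits the precision. Promoter windows are from RefSeq, GRCm38.p6.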

Additional observations from a re-analysis of the deposited data

How the results depend on the processing

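Vim, S100b and Aldh1l1 kept their direction and call under every alternative run, and Sox9 under all but the second brightest probe set (-0.45). Aldh1l1 and Aldoc have no second probe set past the filter. The choice of probe set moved most. With the second brightest, 3 of the 10 genes were lower and 2 higher, Nes was 0.31, Slc1a3 0.74 and Glul 0.93, and over all genes 2541 were lower and 1927 higher, since only 6103 could be tested. With probe sets averaged per gene 2 genes were higher, Slc1a3 was 0.19 and Glul 0.36. The medians of the homeostatic (-1.14 to -0.65) and A2 (-1.14 to -0.42) lists stayed below 0. Equal array medians put Glul at 0.0139 and no filter gave 5299 higher genes. The median over all genes moved from -0.26 to 0.06 with quantile normalization and to -0.05 with equal medians, and the share of calls that were higher from 36.8% to 52.1% and 47.2%; member probe sets called higher rose from 3 to 6 and 8. With each array left out in turn, 5 to 7 genes were lower, 3 to 6 probe sets higher, Slc1a3 was -2.64 to 0.96 (0.52 without H-LY29 replicate 2, because another probe set was then the brightest), and Aldoc -0.11 to 0.29 (-0.02 without L-LY29 replicate 1). Gfap passed whenever an L-LY29 array was left out, for the same reason, with -3.40 to -0.26 over all 5. The pan-reactive median was -0.62 with the second brightest probe set, and the A1 median -1.02 there and -0.58 to -0.0886 with arrays left out. The filament median was -0.29 without a filter, 0.46 with quantile normalization, 0.93 with equal medians, 1.43 with the mean of probe sets and -0.0118 to 0.86 with arrays left out, of which 0.00267 and 0.0153 without L-LY29 replicates 1 and 3. The glutamate median was -0.46, -0.21, -0.37 and -0.41 in the same settings, -0.20 with the second brightest probe set and -0.60 to -0.47 with arrays left out. Precursor markers had a median of 0.76 with the second brightest probe set, and retinal neuron markers 0.22 without a filter. Of the within-array ratios, the mean of probe sets gave -1.20 (Slc1a2 minus Slc1a3), -0.80 (Gfap minus Vim), -0.34 (Vim minus Nes) and 1.16 (Gfap minus Aldh1l1). The second brightest gave -2.83, -1.85 and -1.79 for the same first 3 pairs and 3.01 for Glul minus Slc1a2, and quantile normalization gave 0.10 for Vim minus Nes. With arrays left out they ranged from -2.13 to 1.16, -2.41 to 0.76, 0.12 to 0.81, -0.51 to 3.03 for Gfap minus Aldh1l1 and 0.55 to 1.37 for Glul minus Slc1a2. The cause of the other changes was not tested.

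Whether equal replicate numbers mark pairs was not settled. The deviations of the arrays from their dose's mean correlated at 0.0185 for number 1 and at 0.0465 for number 2. With 2 H-LY29 arrays these deviations are mirror images of each other, so the values cannot decide it. With the number as a block, 6 genes were lower and 1 higher, 10 probe sets were lower and 4 higher, and with 1 probe set per gene Slc1a2 passed at -1.57 (adjusted p = 0.0249) and Glul no longer passed at -0.20. In the block fit of all probe sets that Slc1a2 probe set, 1438194_at, did not pass (adjusted p = 0.0685), 1451627_a_at lost its call (adjusted p = 0.0703), and 1426341_at of Slc1a3 passed as higher (1.54, adjusted p = 0.0213). Signal over background limits the probe sets of Aldh1l1, Sox9, Slc1a2 and Slc1a3 that lie within the range of the poly-A RNAs in H-LY29.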
